A study of Mus musculus with 24 samples.

Results

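The newborn and the uninjured adult distal femur were compared as whole tissue. The distal femur is the knee end of the thigh bone. Each bulk sample was bone that had been frozen and crushed, so that cartilage, bone, marrow and any attached soft tissue were measured together. The comparison took 8 of the 24 arrays of the series by their titles: 3 from newborn mice at postnatal day 3 and 5 from adult mice of 9 to 25 weeks whose joints were not injured. All mice were C57BL/6J, a common inbred strain, with no transgene and no treatment named in the labels. Another 3 bulk arrays, from adults of the same age range whose joints had been microfractured (the bone beneath the cartilage is perforated by surgery), entered the fit only to share its estimate of the spread. Sorted mouse skeletal stem cells of the same ages, 4 newborn and 3 uninjured adult arrays, are cited where a gene was also measured there. The labels do not say whether replicates came from separate animals or pools, so each p-value rests on the spread between arrays, which could be technical.

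The value of a gene in bulk tissue is an activity score that the authors deposited, bounded at -100 and 100. The meaning of 0 is not given in the sources used here. Scores close to a bound can move little further, so differences are given in score points, newborn minus adult, and never as folds. A gene was called when limma's Benjamini-Hochberg adjusted p, over all genes tested, was under 0.05. Errors of differences are limma's standard errors. Precision is limited by the small number of arrays.

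As background, the end of a newborn long bone is still mostly cartilage. Chondrocytes lay down collagen II and aggrecan, and the growth plate lengthens the bone through a loop of Indian hedgehog, parathyroid hormone-related protein and FGF receptor signals. Hematopoiesis in a newborn mouse is still moving from the liver to the marrow, whereas the adult femur is filled with blood-forming marrow held by stromal cells. Imprinted genes, which are read from the copy of a single parent, include several that promote or restrain fetal growth and are turned down after birth in many organs.

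The arrays did not agree equally well. Across probe sets, newborn array 2 correlated at 0.433 and 0.434 with the other newborn arrays, which correlated with each other at 0.635. Newborn array 1 correlated with single adult arrays at 0.502 to 0.63. Adult arrays correlated with each other at 0.569 to 0.805, and adult array 1 had no value above 0.602. Counts are therefore also given without newborn array 2. The labels give no sex. Xist, an RNA made from the inactive X chromosome of females, scored -45.9, 67.2 and 53.01 in newborns and -50.1, -4.39, -8.6, -33.6 and -15.6 in adults. The Y-linked helicase gene Ddx3y scored 97.1, 2.53 and 2.68 in newborns and 81.2, 99.2, 97.6, 97.3 and 90.3 in adults. Newborn array 1 lay with the adults in both genes, while newborn arrays 2 and 3 were higher in Xist and lower in Ddx3y. The part of this in other differences was not tested.

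The tissue label was checked against defining markers. Collagen II (Col2a1) and aggrecan (Acan) scored above 90 in all newborn arrays, and Dmp1, a matrix protein of osteocytes, scored 77.4, 81.3 and 82.1 in newborns and 96.5, 94.6, 94.6, 96.1 and 98.6 in adults. Endothelial Pecam1 scored 18.4, -25.6 and 39.97 in newborns and -0.82, 9.94, -2.45, 15.3 and 52.3 in adults. Muscle creatine kinase (Ckm) scored below 0 in every array, and the basal keratin gene Krt5 was below the filter. Other muscle genes were not all low: Myh8 in newborns and Myh4 in adults scored well above 0, as given with the muscle genes. Dmp1 was thus high at both ages, and the cartilage markers, whose adult values are given with the cartilage genes, were high in newborns.

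Of 16587 genes tested, 1087 (6.55%) were called. In newborns 344 genes (2.07%) were higher and 743 (4.48%) were lower, so 68.4% of the calls were lower. The scores of the 2 groups did not overlap for 16.5% of the genes tested, 7.14% in the higher and 9.32% in the lower direction, and for 1060 of the 1087 called genes. With newborn array 2 left out, limma called 227 genes higher and 580 lower. Counts within gene lists are to be read beside the shares of all genes. The lists were chosen with earlier results of these data known, so their counts describe the lists and are not independent support. Called differences had a median size of 92.1 points, and the median difference over all genes tested was 0.24 points. In bulk tissue, fewer cells of a type and less RNA per cell cannot be told apart.

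**Figure D1:**
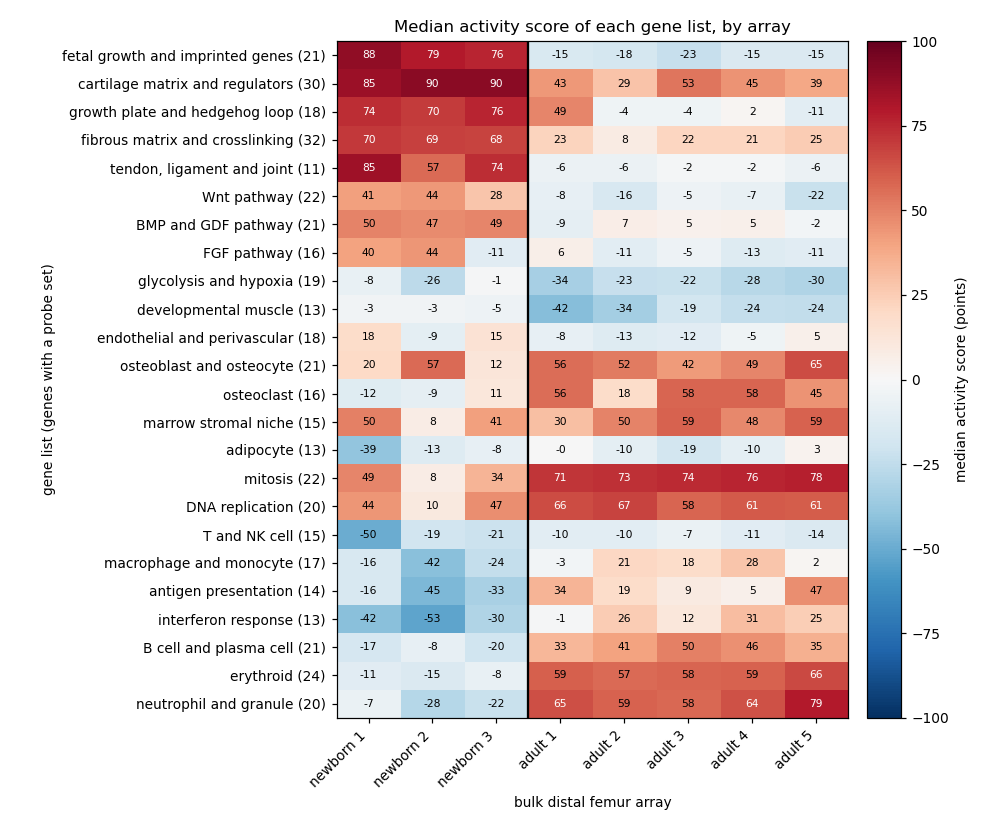
Each cell gives the median activity score, in points, of 1 gene list (rows, with the number of genes that have a probe set) in 1 bulk array (columns). Red is high and blue is low, on a scale from -100 to 100, and the vertical line separates the 3 newborn from the 5 adult arrays. Fetal growth, cartilage and matrix lists are redder in newborns, and the lists of blood cells are redder in adults.

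Many genes of fetal growth and imprinting were higher in newborns. Of 21 genes of this list tested, 11 were called higher and 0 lower, with a median difference of 81.9 points. Without newborn array 2, 10 were called higher. Igf2 encodes insulin-like growth factor 2, the main growth factor of the mouse fetus. Its score was 98.5, 100 and 96.2 in newborns and -43.9, -70.3, -22.8, -6.23 and -41.4 in adults. The newborn arrays lay near the upper bound and every adult array was below 0, a difference of 135 ± 16.5 points (SE, adjusted p = 0.00181). Its neighbour H19, a non-coding RNA expressed from the other parental copy, scored 44.1, 49.8 and 41.2 in newborns and -6.65, -35.96, -26.03, -25.6 and -98.2 in adults. The groups did not overlap, and the difference was 83.5 ± 18.8 points (SE, adjusted p = 0.0244).

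Cdkn1c encodes the CDK inhibitor p57, which slows the cell cycle. Its score was 95.7, 90.3 and 92.3 in newborns and -17.4, -16.9, 1.34, -0.49 and 7.24 in adults. All newborn arrays were at or above 90 and all adult arrays close to 0, a difference of 98.0 ± 15.9 points (SE, adjusted p = 0.006). Mest, which encodes a hydrolase-like protein of mesoderm, scored 61.9, 74.4 and 45.9 in newborns and -36.98, -17.8, -24.3, -30.4 and -46.3 in adults, with no overlap and a difference of 91.9 ± 13.7 points (SE, adjusted p = 0.00399). Zdbf2, which is outside the list, had the largest rise of all genes in the comparison, 179 ± 12.6 points (SE, adjusted p = 0.000331). Its score was 96.2, 86.97 and 92.6 in newborns and -65.7, -80.8, -93.1, -99.3 and -94.9 in adults, so the groups lay at opposite ends of the scale.

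Several of the imprinted genes that rose lie beside each other in RefSeq's gene order. These stretches were chosen after their values were seen. On chromosome 12, the non-coding RNAs Meg3, Rian and Mirg rose by 103, 117 and 148 points, with adjusted p of 0.00399, 0.00402 and 0.00214. The transcript 6430411K18Rik, between Meg3 and Rian, scored 99.9, 98.5 and 99.9 in newborns and -31.6, -86.2, -23.4, -86.8 and -27.1 in adults, with no overlap and a difference of 150.4 ± 20.9 points (SE, adjusted p = 0.00293). Dlk1, a Notch-like membrane protein gene at the start of the stretch, scored 83.1, -19.4 and 70.7 in newborns and -15.1, -75.97, -28.6, -70.7 and -30.0 in adults. Newborn array 2 lay among the adults, and the difference of 88.9 ± 27.5 points (SE, adjusted p = 0.0847) did not pass. When every probe set was tested, the second Dlk1 probe set passed, at 110.68 ± 14.97 points (SE, adjusted p = 0.00252, limma). Between Dlk1 and Dio3, 4 of 6 genes tested were called higher.

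On chromosome 7, the zinc finger gene Zim1 and the ubiquitin protease gene Usp29 rose by 132 ± 28.6 points (SE, adjusted p = 0.0211) and 132 ± 23.2 points (SE, adjusted p = 0.00869). The second Usp29 probe set, at 32.09 ± 15.47 points (SE, adjusted p = 0.263, limma), did not pass. Peg3, the zinc finger gene between them, scored 69.7, 99.1 and 99.6 in newborns and 45.7, 75.03, 62.4, -12.1 and 80.7 in adults on the probe set with its highest mean, and that difference of 39.1 ± 19.8 points (SE, adjusted p = 0.297) did not pass. Of the 5 Peg3 probe sets tested, all differed upwards and 3 passed when every probe set was tested. Zim2 did not pass (-6.17 points, adjusted p = 0.945), so 2 of 4 tested genes from Zim2 to Usp29 were called higher. On chromosome 6, Klf14, a transcription factor gene in the stretch that starts with Mest, scored 99.2, 97.95 and 99.4 in newborns and -88.7, -43.7, -47.7, -20.2 and -84.03 in adults. The difference was 156 ± 19.4 points (SE, adjusted p = 0.00199), while the 3 tested genes between Mest and Klf14 did not pass.

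In the sorted stem cells, 17 of 20 listed genes were higher in newborns and 0 lower, where 54.6% of all genes tested were called (25.2% higher and 29.4% lower). On the log2(intensity + 16) scale, Igf2 rose by 4.08 ± 0.29 (SE, adjusted p = 4.56e-07), Mest by 4.38 ± 0.18 (SE, adjusted p = 8.5e-09) and Mirg by 4.60 ± 0.38 (SE, adjusted p = 1.32e-06). Usp29 is outside that list, as are Zdbf2, Klf14, 6430411K18Rik and Zim2. In the sorted cells Usp29 went the other way, with a difference of -1.48 ± 0.47 (SE, adjusted p = 0.0171). Among genes of fetal RNA-binding proteins and chromatin, 2 of 12 rose. Igf2bp2, whose protein binds Igf2 mRNA, scored 99.4, 92.4 and 99.4 in newborns and 48.9, 45.03, 49.5, 52.5 and 50.7 in adults, a difference of 47.7 ± 8.9 points (SE, adjusted p = 0.011) between groups that did not overlap. Sox11, a transcription factor gene of embryonic progenitors, rose by 72.7 ± 11.2 points (SE, adjusted p = 0.00461). Hmga2, a fetal chromatin protein gene, scored 19.1, -2.23 and 27.2 in newborns and -27.4, -7.63, -23.1, -4.78 and -39.5 in adults, and its difference of 35.2 ± 13.1 points (SE, adjusted p = 0.151) did not pass.

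**Figure D2:**
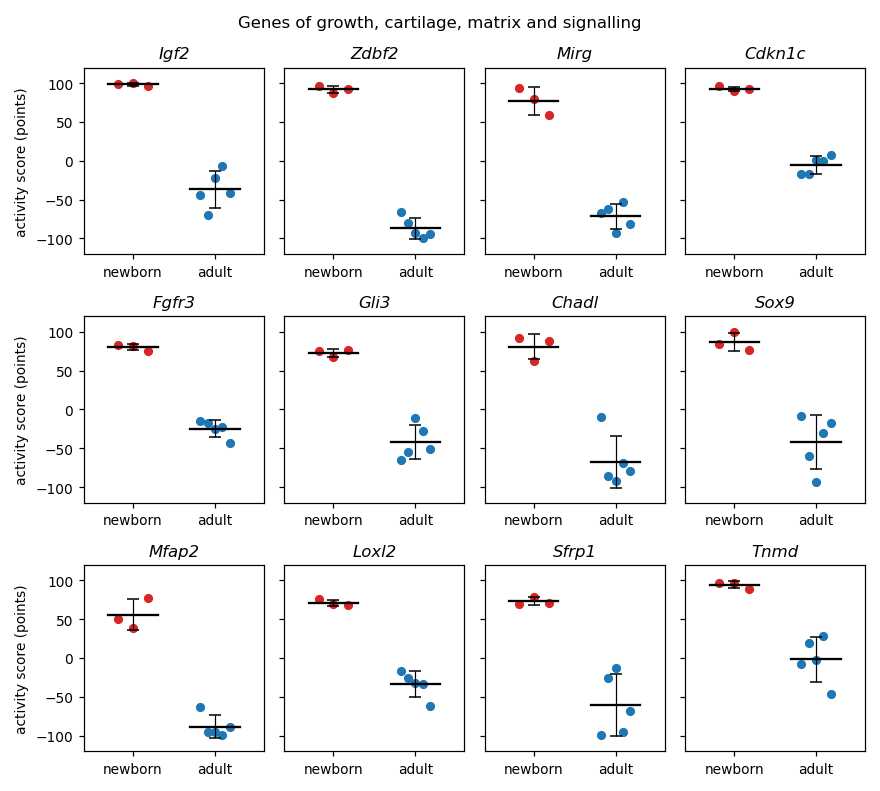
Activity scores (points, vertical axes) of 12 genes in the 3 newborn arrays (red) and the 5 uninjured adult arrays (blue). Each point is 1 array, horizontal lines are group means and bars are SD, which may reach past the bounds of the score. In all 12 genes every newborn array lies above every adult array, and Sox9 alone among them did not pass the test.

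Cartilage genes leaned upwards in newborns, with few calls. Of 28 tested, 27 had a positive difference, 5 were called higher and 0 lower, and the median difference was 46.5 points. In 18 of them every newborn array was above every adult array, as was so for 7.14% of all genes tested. Leaving out newborn array 2 left 2 called higher. The called genes encode matrix proteins of cartilage. Matn1, matrilin 1, scored 46.1, 52.3 and 44.6 in newborns and -12.8, -2.42, -13.7, -40.8 and -3.6 in adults, a difference of 62.4 ± 13.7 points (SE, adjusted p = 0.0224). Col9a2, a chain of the collagen that coats collagen II fibrils, scored 58.7, 37.2 and 44.9 in newborns and -5.71, -3.42, -17.8, -24.9 and -2.46 in adults, a difference of 57.8 ± 14.3 points (SE, adjusted p = 0.0368). The groups of both genes were apart.

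Comp, cartilage oligomeric matrix protein, rose by 77.95 ± 20.2 points (SE, adjusted p = 0.0446), chondroadherin (Chad) by 95.2 ± 23.1 points (SE, adjusted p = 0.0333) and Ucma, a protein of the unmineralized zone, by 72.3 ± 18.4 points (SE, adjusted p = 0.0413). Chadl, a relative of chondroadherin named outside the rule after its values were seen, rose by 148 ± 22.9 points (SE, adjusted p = 0.00461). Sox9, the transcription factor that commits cells to cartilage, scored 84.2, 99.8 and 75.9 in newborns and -8.93, -60.2, -93.4, -31.01 and -17.7 in adults. All newborn arrays were above all adults, but the difference of 129 ± 35.6 points (SE, adjusted p = 0.0571) did not pass. When every probe set was tested, 2 of the 3 Sox9 probe sets passed.

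The genes of the most abundant cartilage proteins were not called. Col2a1 scored 95.2, 95.5 and 95.4 in newborns and 58.7, 9.89, 64.8, 42.7 and 74.6 in adults, and Acan scored 93.8, 97.5 and 97.5 in newborns and 65.1, -0.18, 53.6, 25.4 and 41.9 in adults. Both had all newborn arrays close to the upper bound and above all adults, and neither difference passed: 45.3 ± 16.01 points (SE, adjusted p = 0.13) and 59.1 ± 20.1 points (SE, adjusted p = 0.114). Prg4, the lubricant of joint surfaces, scored 88.6, 88.96 and 91.8 in newborns and 45.7, 36.8, 53.7, 63.4 and 66.5 in adults, again without overlap and without a call (36.6 ± 11.02 points (SE, adjusted p = 0.0769)). In the sorted stem cells 18 of 29 cartilage genes were higher in newborns and 5 lower, beside 25.2% and 29.4% of all genes tested there. Matn1 rose there by 5.25 ± 0.32 (SE, adjusted p = 1.38e-07), whereas Prg4 fell by 3.62 ± 0.25 (SE, adjusted p = 3.37e-07) and Chad fell by 1.38 ± 0.17 (SE, adjusted p = 3.21e-05).

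In the growth plate and hedgehog list, 3 of 17 genes rose and 1 fell, with a median difference of 32.4 points and the same counts without newborn array 2. Gli3 and Gli2 encode the transcription factors through which hedgehog signals act. Gli3 scored 75.7, 67.1 and 76.5 in newborns and -65.4, -55.3, -11.6, -27.9 and -50.6 in adults, a difference of 115 ± 14.7 points (SE, adjusted p = 0.00211), although its second probe set differed downwards. Gli2 rose by 84.3 ± 18.4 points (SE, adjusted p = 0.0224). Fgfr3, the receptor that restrains growth plate chondrocytes, scored 82.4, 81.8 and 75.4 in newborns and -14.9, -17.1, -25.4, -22.1 and -43.8 in adults, and rose by 105 ± 13.9 points (SE, adjusted p = 0.00264).

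Ihh, the hedgehog ligand of prehypertrophic chondrocytes, scored 30.3, 21.5 and 46.6 in newborns and -20.3, -81.9, -5.14, -93.03 and -18.9 in adults, and Col10a1, the collagen of hypertrophic chondrocytes, scored -1.05, 43.2 and 65.9 in newborns and -20.8, -1.84, -1.2, -2.39 and -2.66 in adults. Newborn arrays were above all adults in both genes, and their differences of 76.6 ± 24.2 points (SE, adjusted p = 0.0907) and 41.8 ± 16.4 points (SE, adjusted p = 0.173) did not pass. Mmp13, a collagenase of hypertrophic cartilage and bone, was the gene of the list that fell. Its score was -1.95, 21.2 and 0.43 in newborns and 67.05, 62.3, 62.5, 76.4 and 81.4 in adults, a difference of -63.4 ± 14.03 points (SE, adjusted p = 0.0232), and in the sorted cells it fell by 5.68 ± 0.24 (SE, adjusted p = 8.5e-09).

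Genes of bone cells did not move as a block. In the osteoblast and osteocyte list, 1 of 20 genes rose and 4 fell, and the median difference was 7.36 points. Without newborn array 2, 3 fell. Phex, an endopeptidase of osteocytes that controls phosphate, scored -15.2, -10.4 and -1.49 in newborns and 84.6, 91.5, 90.8, 90.2 and 87.5 in adults. The adult arrays stood together near the upper bound and the newborns just below 0, a difference of -97.95 ± 10.4 points (SE, adjusted p = 0.000984). Mepe, a matrix protein made by osteocytes, scored -4.94, 72.8 and -35.03 in newborns and 98.0, 96.9, 96.6, 98.1 and 98.2 in adults, so that newborn array 2 lay far above the other newborns, and fell by 86.6 ± 18.5 points (SE, adjusted p = 0.0205).

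Dmp1, high at both ages, fell by 15.8 ± 3.87 points (SE, adjusted p = 0.0351). Kera, keratocan, a small proteoglycan, rose by 91.3 ± 19.2 points (SE, adjusted p = 0.0191), and fell by 2.91 ± 0.65 (SE, adjusted p = 0.00239) in the sorted cells. Collagen I (Col1a1) scored 83.6, 88.6 and 78.6 in newborns and 93.6, 61.9, 63.02, 77.1 and 80.5 in adults, bone sialoprotein (Ibsp) 29.4, 56.98 and 49.4 in newborns and 77.6, 52.3, 62.8, 62.8 and 87.5 in adults, and Runx2, the master regulator of osteoblasts, 98.6, 87.9 and 99.4 in newborns and 99.2, 54.6, 97.7, 93.2 and 99.7 in adults. The groups overlapped in all 3 genes, with differences of 8.38 ± 9.46 points (SE, adjusted p = 0.667), -23.4 ± 12.4 points (SE, adjusted p = 0.319) and 6.44 ± 9.62 points (SE, adjusted p = 0.76). Sp7 was below the filter.

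Osteoclasts, which resorb bone, had 4 of 16 listed genes lower in newborns and 0 higher, at a median difference of -32.5 points. The differences of 5 listed genes were positive, the highest at 101.85 points, and none of these was called. The count was 3 without newborn array 2. Car2, the carbonic anhydrase that supplies acid for resorption and is also present in red cells, scored -4.57, -88.5 and -34.4 in newborns and 73.2, 75.5, 76.6, 81.6 and 84.5 in adults, a difference of -121 ± 20.02 points (SE, adjusted p = 0.00678). Dcstamp, needed for osteoclast fusion, scored -98.8, -53.7 and -74.2 in newborns and -2.56, 73.7, 89.8, 93.8 and 54.7 in adults, a difference of -137 ± 23.9 points (SE, adjusted p = 0.0084). No newborn array reached an adult one in either gene. The proton pump subunit gene Atp6v0d2 fell by 84.96 ± 14.96 points (SE, adjusted p = 0.00869) and the phosphatase gene Acp5 fell by 70.1 ± 16.7 points (SE, adjusted p = 0.0315). Cathepsin K (Ctsk), the main collagenase of osteoclasts, scored 54.7, 65.6 and 49.3 in newborns and 61.8, 47.6, 60.9, 62.6 and 83.7 in adults, with overlapping groups (-6.79 ± 11.03 points (SE, adjusted p = 0.78)).

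Some fibrous matrix genes were higher in newborns. Of 30 tested, 9 rose and 0 fell, with a median difference of 28.1 points, and 5 rose without newborn array 2. Mfap2, a microfibril protein of elastic fibres, scored 49.8, 39.1 and 77.7 in newborns and -63.1, -94.9, -95.7, -98.96 and -89.4 in adults, a difference of 144 ± 20.1 points (SE, adjusted p = 0.00307). Loxl2, which crosslinks collagen, scored 75.8, 69.5 and 68.03 in newborns and -16.2, -26.4, -32.1, -33.5 and -61.5 in adults, a difference of 105 ± 14.8 points (SE, adjusted p = 0.00312). The groups were far apart in both genes. Mfap4 rose by 121 ± 22.1 points (SE, adjusted p = 0.0101), the collagen VI chains Col6a3 and Col6a1 by 74.9 ± 15.8 points (SE, adjusted p = 0.0193) and 71.5 ± 15.8 points (SE, adjusted p = 0.0232), and thrombospondin 2 (Thbs2) by 79.04 ± 16.98 points (SE, adjusted p = 0.0207).

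Tendon and ligament genes included Tnmd, tenomodulin, at 96.2, 97.05 and 88.96 in newborns and -7.69, 19.8, -2.31, 28.5 and -46.5 in adults, a rise of 95.7 ± 20.1 points (SE, adjusted p = 0.0191). In all, 2 of 11 genes of that list rose, and all 11 had a positive difference. In the sorted cells Tnmd fell by 1.72 ± 0.36 (SE, adjusted p = 0.00161) and Thbs2 fell by 1.33 ± 0.21 (SE, adjusted p = 0.000221). Embryonic and perinatal myosins, which muscle fibres use before the adult forms, rose in the bulk tissue. Myh8 scored 91.8, 82.3 and 75.3 in newborns and -42.4, -3.22, -64.03, -80.05 and -17.4 in adults, a difference of 125 ± 19.1 points (SE, adjusted p = 0.00443), and Myh3 rose by 82.5 ± 18.3 points (SE, adjusted p = 0.0235). Of 19 adult muscle genes tested, 0 rose and 0 fell by limma's test, and 3 had an unadjusted p under 0.05, all lower. The fast myosin Myh4 scored 6.23, -6.38 and -0.55 in newborns and 53.2, 40.7, 51.1, 57.7 and 50.6 in adults, apart in every array, and its difference of -50.9 ± 15.8 points (SE, adjusted p = 0.0855) did not pass.

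Among Wnt genes, 5 of the 6 calls were secreted inhibitors or their relatives. How many of the 19 genes tested are of that kind was not counted, so this shows no rise particular to them. In the Wnt list 6 of 19 genes rose and 0 fell, with a median difference of 49.2 points, and 5 rose without newborn array 2, when 1 fell. Sfrp1, which binds Wnt proteins outside the cell, scored 69.8, 78.8 and 70.6 in newborns and -99.4, -25.96, -12.4, -95.4 and -67.8 in adults, a difference of 133 ± 20.5 points (SE, adjusted p = 0.00454). Frzb, of the same family and abundant in joint cartilage, scored 93.2, 98.03 and 90.01 in newborns and 12.2, -2.1, 32.0, -11.7 and -47.7 in adults, a difference of 97.2 ± 19.5 points (SE, adjusted p = 0.0156). Neither gene had a newborn array within the adult range. Sfrp2 rose by 68.8 ± 17.3 points (SE, adjusted p = 0.0399) and Dkk3, a relative of such inhibitors, by 84.6 ± 17.3 points (SE, adjusted p = 0.0172). Dkk2 scored 91.99, -5.74 and 65.6 in newborns and -62.4, -32.1, -33.4, -5.61 and -99.8 in adults, with newborn array 2 inside the adult range, and rose by 97.3 ± 24.7 points (SE, adjusted p = 0.0414). The receptor gene Fzd1 rose by 89.9 ± 20.2 points (SE, adjusted p = 0.0245). In the sorted cells Sfrp1 rose by 3.41 ± 0.22 (SE, adjusted p = 2.26e-07) and Frzb by 1.51 ± 0.36 (SE, adjusted p = 0.00336), whereas Dkk3 fell by 1.80 ± 0.25 (SE, adjusted p = 9.94e-05) and Fzd1 fell by 1.64 ± 0.21 (SE, adjusted p = 4.9e-05).

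In the BMP list 3 of 18 genes (16.7%) rose and 0 fell, where 2.07% of all genes rose. Without newborn array 2, 2 rose. The receptor gene Bmpr1b, which acts in early cartilage, scored 70.1, 60.9 and 60.3 in newborns and -17.2, -15.1, 19.3, -9.48 and -38.4 in adults, a difference of 75.9 ± 17.4 points (SE, adjusted p = 0.0266). The extracellular modulator Bmper rose by 74.0 ± 18.8 points (SE, adjusted p = 0.0414) and the ligand Bmp5 by 42.6 ± 11.4 points (SE, adjusted p = 0.0496), calls that were lost in 11 and 13 of 18 alternative settings besides the replicate block. Bmp2, the ligand used to induce bone, scored 95.7, 92.5 and 91.3 in newborns and 94.2, 84.9, 72.5, 92.4 and 95.2 in adults, high at both ages and overlapping. In the FGF list 2 of 15 genes (13.3%) rose, Fgfr3 and the ligand Fgf9, the latter by 81.4 ± 17.1 points (SE, adjusted p = 0.0191). Of the TGF-beta list 0 of 11 genes were called higher, and of the Notch list 0 of 11. No gene of these 2 lists was called lower by limma, and 1 gene, of the TGF-beta list, had an unadjusted p under 0.05.

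With all arrays, most genes of the red cell lineage were called lower in newborns. Of 23 erythroid genes tested, 15 fell and 0 rose, with a median difference of -76.5 points, where 4.48% of all genes fell. Without newborn array 2, 9 of 21 genes tested fell, and 7 fell without adult array 1 as well. Epb42, a protein of the red cell membrane skeleton, scored -3.38, -2.8 and -4.18 in newborns and 78.3, 75.99, 77.1, 79.8 and 92.4 in adults. The newborn arrays lay together just below 0 and the adults above 70, a difference of -84.2 ± 11.8 points (SE, adjusted p = 0.00312). Klf1, the transcription factor of red cell genes, scored -14.96, -80.3 and -97.8 in newborns and 17.7, 26.98, 21.4, 30.8 and 15.98 in adults, a difference of -86.96 ± 17.5 points (SE, adjusted p = 0.0159). Alas2, which starts heme synthesis in red cells, scored -1.97, -20.8 and -4.88 in newborns and 92.4, 53.4, 57.4, 57.96 and 80.7 in adults, and fell by 77.6 ± 16.5 points (SE, adjusted p = 0.0202). The anion exchanger Slc4a1 fell by 82.4 ± 15.5 points (SE, adjusted p = 0.0115).

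The promoters of 2 of these genes are shown because they hold the letters AGATAA, a form of the site that GATA factors bind. Sequences are RefSeq's, build GRCm38.p6, from 250 bases before to 50 after the gene's start, written on the gene's strand, with each match on either strand in capitals. The Epb42 window lies at chr2:121036828-121037127 on the minus strand and the Alas2 window at chrX:150547167-150547466 on the plus strand.
Epb42: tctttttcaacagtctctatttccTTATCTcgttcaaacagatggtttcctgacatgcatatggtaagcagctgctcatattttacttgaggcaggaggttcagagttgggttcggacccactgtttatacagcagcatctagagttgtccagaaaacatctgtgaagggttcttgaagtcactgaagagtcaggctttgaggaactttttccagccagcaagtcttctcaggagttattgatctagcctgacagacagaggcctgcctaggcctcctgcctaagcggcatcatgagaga
Alas2: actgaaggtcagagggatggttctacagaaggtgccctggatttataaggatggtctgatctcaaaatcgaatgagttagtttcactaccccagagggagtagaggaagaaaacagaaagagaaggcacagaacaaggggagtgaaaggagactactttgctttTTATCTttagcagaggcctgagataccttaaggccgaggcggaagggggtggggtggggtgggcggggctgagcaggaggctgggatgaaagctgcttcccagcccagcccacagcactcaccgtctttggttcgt
The letters were in 6 of the 14 erythroid genes tested that had a RefSeq promoter (42.9%) and in 11.2% of all 32851 promoters. The list was counted by gene, with a match in any promoter of the gene, and the background by promoter, so the units differ. A match is a description of the letters only.

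Most neutrophil genes were lower in newborns. They fell in 15 of 19, with 0 higher and a median difference of -77.8 points, where 4.48% of all genes fell. Without newborn array 2, 12 fell, and 8 fell without adult array 1 as well. Ctsg, a protease of neutrophil granules, scored -36.5, -82.9 and -99.4 in newborns and 38.1, 30.5, 31.96, 32.5 and 34.2 in adults, and Cd177, a surface protein of neutrophils, scored -42.0, -84.9 and -35.5 in newborns and 78.9, 60.9, 74.4, 68.6 and 82.2 in adults. No newborn array reached an adult array in either gene, and the differences were -106 ± 15.8 points (SE, adjusted p = 0.004) and -127 ± 19.5 points (SE, adjusted p = 0.00443). Padi4, which modifies histones in activated neutrophils, fell by 122 ± 20.98 points (SE, adjusted p = 0.00819), neutrophil elastase (Elane) fell by 84.3 ± 21.7 points (SE, adjusted p = 0.0431), myeloperoxidase (Mpo) fell by 58.6 ± 15.3 points (SE, adjusted p = 0.0454) and lysozyme (Lyz2) fell by 77.8 ± 16.2 points (SE, adjusted p = 0.0188). Cd33, a myeloid surface receptor, had 1 of the 12 largest falls of all genes. Its score was -28.02, -94.5 and -85.98 in newborns and 94.4, 88.1, 88.8, 93.6 and 97.6 in adults, a difference of -162 ± 18.03 points (SE, adjusted p = 0.0012). The calls of Elane and Mpo were lost in 14 of 18 and 13 of 17 alternative settings.

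In the macrophage and monocyte list 4 of 15 genes fell, and 3 without newborn array 2. All 15 had a negative difference. Ccr2, the chemokine receptor of inflammatory monocytes, scored -42.6, -52.6 and 9.09 in newborns and 85.7, 92.7, 85.5, 91.4 and 96.95 in adults, a difference of -119 ± 15.02 points (SE, adjusted p = 0.00203). The scavenger receptor Cd163 fell by 67.2 ± 9.88 points (SE, adjusted p = 0.00382) and the mannose receptor Mrc1 fell by 57.9 ± 12.5 points (SE, adjusted p = 0.0208), and both were above 0 in every newborn array.

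Genes of B cell development fell in 9 of 21 cases, and in 6 without newborn array 2, with a median difference of -59.98 points. Vpreb1, part of the surrogate light chain of early B cells, scored -16.9, -5.68 and -8.32 in newborns and 83.1, 80.4, 80.96, 80.8 and 76.3 in adults. The adult arrays stood within a narrow band near 80 and the newborns just below 0, a difference of -90.6 ± 11.7 points (SE, adjusted p = 0.00214). Dntt, the enzyme that adds bases at joints of antigen receptor genes and is little used before birth, scored 11.7, -76.3 and -83.5 in newborns and 93.1, 99.8, 99.3, 98.7 and 93.8 in adults, a difference of -146 ± 19.9 points (SE, adjusted p = 0.00277). Cd79a, a signalling chain of the B cell receptor, scored -10.2, -8.11 and -66.6 in newborns and 29.4, -1.47, -1.53, 19.2 and 35.3 in adults without a call (-44.5 ± 17.4 points (SE, adjusted p = 0.17)). Igll1, the partner of Vpreb1, stayed above 40 in all newborn arrays and fell by 34.8 ± 7.41 points (SE, adjusted p = 0.0202).

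Among T and NK cell genes 3 of 13 (23.1%) fell, where 4.48% of all genes fell. They included the granzyme gene Gzma (-64.95 ± 12.9 points (SE, adjusted p = 0.0153)) and the NK receptor Klrd1 (-84.04 ± 17.6 points (SE, adjusted p = 0.0189)). Of genes of blood stem cells, mast cells and megakaryocytes 3 of 8 fell, with the platelet chemokine Ppbp at -73.2 ± 11.3 points (SE, adjusted p = 0.00461). Without newborn array 2 each count was 2. Ptprc encodes CD45, carried by nearly all white cells and used as a negative gate in the stem cell sort. It scored -5.36, -38.1 and -99.1 in newborns and 82.6, 94.4, 89.1, 92.6 and 91.2 in adults and fell by 138 ± 19.4 points (SE, adjusted p = 0.00312).

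A minority of the antigen presentation, interferon and cytokine genes were called, all of them lower in newborns. Of antigen presentation genes 5 of 13 fell, of interferon response genes 4 of 10, and of inflammatory cytokine and chemokine genes 5 of 12. Without newborn array 2 the counts were 2, 2 and 2. Rsad2, an antiviral enzyme, scored 16.6, -58.1 and -9.82 in newborns and 94.1, 91.8, 91.2, 91.03 and 91.2 in adults, a difference of -109 ± 15.5 points (SE, adjusted p = 0.00317). The interleukin gene Il1b scored -98.1, -99.6 and -28.4 in newborns and 27.2, 51.6, 38.3, 43.6 and 38.6 in adults, a difference of -115 ± 19.8 points (SE, adjusted p = 0.00807). In each gene all adults were above all newborns. Psmb9, a subunit of the immunoproteasome, fell by 89.1 ± 16.03 points (SE, adjusted p = 0.00964), the class I gene H2-K1 fell by 72.7 ± 13.2 points (SE, adjusted p = 0.00971) and the class II gene H2-Aa fell by 79.7 ± 18.6 points (SE, adjusted p = 0.0283). White cells express many of these genes, and the part of white cell content in these falls was not tested.

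**Figure D3:**
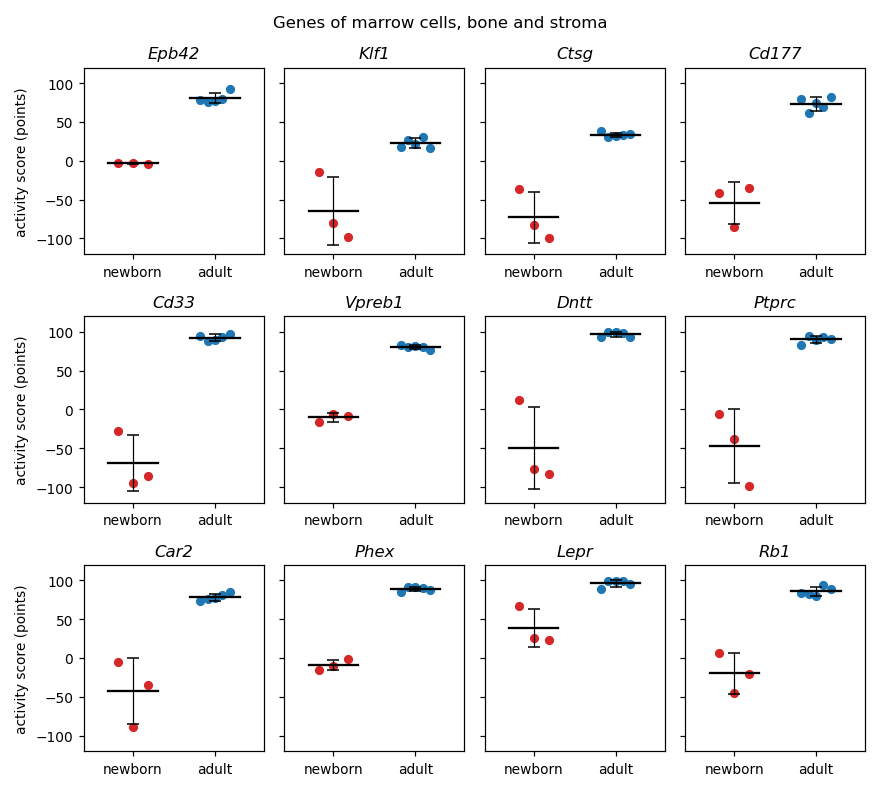
Activity scores (points, vertical axes) of 12 genes in the 3 newborn arrays (red) and the 5 uninjured adult arrays (blue). Each point is 1 array, horizontal lines are group means and bars are SD, which may reach past the bounds of the score. Every newborn array lies below every adult array in each of the 12 genes, which span red cells, neutrophils, B cells, osteoclasts, osteocytes, stroma and the cell cycle.

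Marrow stromal genes gave few calls. Lepr, the leptin receptor that marks the stromal cells around marrow vessels, scored 66.5, 25.5 and 23.2 in newborns and 88.7, 99.2, 98.5, 98.5 and 95.8 in adults, a difference of -57.8 ± 10.5 points (SE, adjusted p = 0.00976). Vcam1, an adhesion protein of the same cells, scored 29.7, 7.72 and 49.9 in newborns and 80.1, 82.6, 83.05, 79.3 and 83.1 in adults, a difference of -52.5 ± 10.96 points (SE, adjusted p = 0.0187). Every newborn array was below every adult array in both. Cxcl12, the chemokine that holds blood stem cells in the marrow, scored 36.9, 6.21 and 41.4 in newborns and 54.9, 85.8, 83.04, 87.5 and 58.7 in adults, also apart, and its difference of -45.8 ± 14.04 points (SE, adjusted p = 0.0818) did not pass, while 1 of its 3 probe sets did when each was tested. In all 2 of 15 genes (13.3%) fell, where 4.48% of all genes fell, and 0 rose. The median difference was 2.24 points, and the counts were the same without newborn array 2. In the sorted cells Lepr fell by 2.85 ± 0.29 (SE, adjusted p = 7.81e-06) and Cxcl12 fell by 3.74 ± 0.23 (SE, adjusted p = 1.36e-07). Of 10 fat cell genes 1 (10.0%) fell, Cfd, the adipocyte protease adipsin (-79.5 ± 13.8 points (SE, adjusted p = 0.0084)). Adipoq, which encodes the fat cell hormone adiponectin, scored -2.11, -13.2 and -6.22 in newborns and -0.29, 53.9, 57.4, 58.7 and 44.4 in adults without a call.

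Vessel genes gave no calls. Of 13 endothelial and perivascular genes 0 rose and 0 fell, and of 7 VEGF pathway genes 0 and 0 (limma). At an unadjusted p under 0.05 there were 2 of the former and 0 of the latter. The VEGF receptor gene Kdr scored -18.7, -7.41 and 11.8 in newborns and 65.4, -37.3, -59.2, -39.8 and -19.1 in adults, and Flt1, the receptor that binds VEGF most tightly, scored -91.03, 52.2 and -2.36 in newborns and -5.11, -2.81, -5.72, -41.3 and -7.06 in adults. In Kdr every newborn array lay above every adult array but that at 65.4. In Flt1 newborn arrays lay both above and below all adult arrays.

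All mitosis genes called in bulk tissue were lower in newborns, and all mitosis genes called in sorted cells were higher, but these were not all the same genes. Of 21 mitosis genes tested in bulk, 5 fell, 0 rose and 19 had a negative difference, with a median of -39.3 points. The count of falls was 3 without newborn array 2. In the sorted cells 16 of 20 rose and 0 fell, where 25.2% of all genes tested there rose and 29.4% fell. Kif11, a motor of the mitotic spindle, scored 57.1, 26.5 and 44.6 in newborns and 86.6, 97.6, 97.6, 92.9 and 98.5 in adults, a difference of -51.9 ± 8.36 points (SE, adjusted p = 0.00582), against a rise of 0.99 ± 0.17 (SE, adjusted p = 0.000447) in the sorted cells. Top2a, which untangles DNA before division, scored 64.9, 16.9 and -5.98 in newborns and 83.7, 97.9, 93.04, 98.4 and 98.4 in adults, a difference of -68.99 ± 15.4 points (SE, adjusted p = 0.0242), against a rise of 1.68 ± 0.23 (SE, adjusted p = 8.54e-05). In bulk all adults were above all newborns in both.

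Ccna2, cyclin A2, fell by 42.8 ± 9.06 points (SE, adjusted p = 0.0198) in bulk and rose in sorted cells by 1.00 ± 0.25 (SE, adjusted p = 0.0044). Bub1, a checkpoint kinase, fell by 43.6 ± 11.2 points (SE, adjusted p = 0.0435) in bulk and Mki67, the proliferation marker, fell by 25.2 ± 6.7 points (SE, adjusted p = 0.0491). These calls were lost in 12 (Bub1) and 13 (Mki67) of 18 alternative settings, and Bub1 was not called in the sorted cells (0.43 ± 0.24 (SE, adjusted p = 0.149)). Mki67 is not among the mitosis genes tested in both tables. Of 20 replication genes 1 fell, Rrm2, which makes DNA precursors (-58.1 ± 15.5 points (SE, adjusted p = 0.0489)), a share of 5.0% beside 4.48% of all genes tested. That call was lost in 12 of 18 alternative settings. In the sorted cells 8 of 18 replication genes rose and 0 fell, beside 25.2% and 29.4% of all genes tested there. Rrm2 was not called in those cells (0.52 ± 0.27 (SE, adjusted p = 0.117)). The tables have different units and were not tested against each other. The bulk falls stood beside those of the blood lists, and the part of blood cells in them was not tested. Rb1, which blocks entry into S phase, fell by 106 ± 18.6 points (SE, adjusted p = 0.00876), though its second probe set differed upwards, and Gadd45a, a stress-induced growth arrest gene, fell by 107 ± 23.1 points (SE, adjusted p = 0.0208). Cdkn1a, the p53 target p21, scored -3.86, -51.4 and 7.75 in newborns and -14.1, -81.5, -71.98, -78.5 and -20.5 in adults, with overlapping groups.

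**Figure D4:**
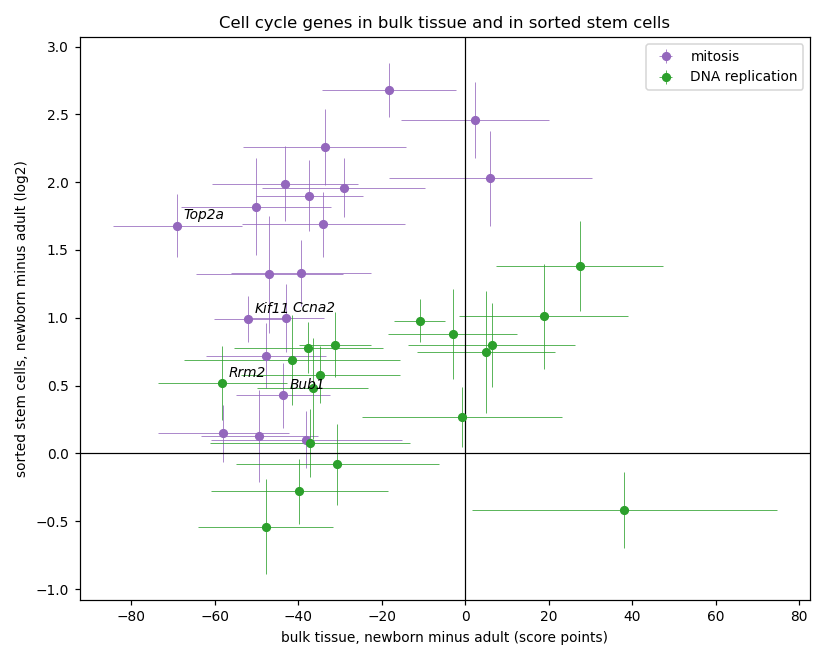
Difference of each mitosis (purple) and DNA replication (green) gene tested in both tables, in bulk tissue (horizontal, score points) and in sorted stem cells (vertical, log2(intensity + 16)), each newborn minus uninjured adult. Bars are limma's standard errors and genes called in bulk are named. Of 19 mitosis genes, 17 lie at the upper left, negative in bulk and positive in sorted cells.

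The promoters of Kif11, Top2a and Mki67 are shown because each holds the letters TTTGAA, a form of the cell cycle homology element through which mitosis genes are held down outside division. The windows, again from RefSeq's GRCm38.p6, lie at chr19:37376132-37376431 (plus strand), chr11:99024140-99024439 (minus strand) and chr7:135716330-135716629 (minus strand), with matches on either strand in capitals.
Kif11: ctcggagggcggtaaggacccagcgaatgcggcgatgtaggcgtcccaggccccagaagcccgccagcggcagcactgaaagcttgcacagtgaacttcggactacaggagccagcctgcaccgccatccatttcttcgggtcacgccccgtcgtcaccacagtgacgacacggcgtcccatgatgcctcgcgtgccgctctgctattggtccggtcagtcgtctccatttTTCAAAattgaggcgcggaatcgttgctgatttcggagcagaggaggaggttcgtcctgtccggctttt
Top2a: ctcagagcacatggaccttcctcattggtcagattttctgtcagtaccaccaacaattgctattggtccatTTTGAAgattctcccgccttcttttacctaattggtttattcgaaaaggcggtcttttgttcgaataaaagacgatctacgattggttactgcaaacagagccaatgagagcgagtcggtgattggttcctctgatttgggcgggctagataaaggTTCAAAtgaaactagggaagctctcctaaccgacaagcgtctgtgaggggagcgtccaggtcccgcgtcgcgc
Mki67: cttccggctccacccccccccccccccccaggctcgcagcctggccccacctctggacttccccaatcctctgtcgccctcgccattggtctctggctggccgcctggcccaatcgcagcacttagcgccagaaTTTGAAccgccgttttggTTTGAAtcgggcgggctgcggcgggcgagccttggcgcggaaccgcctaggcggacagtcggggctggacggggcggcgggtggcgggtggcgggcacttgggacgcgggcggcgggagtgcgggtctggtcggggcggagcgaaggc
The letters were in 12 of 17 mitosis genes tested that had a RefSeq promoter (70.6%), in 2 of 16 replication genes (12.5%) and in 17.9% of all promoters. Again the lists were counted by gene and the background by promoter.

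Metabolic lists gave few calls. In the glycolysis and hypoxia list 3 of 11 genes rose and 0 fell, and 1 rose without newborn array 2. Car9, a carbonic anhydrase induced by low oxygen, scored 60.04, 18.2 and 71.2 in newborns and -32.4, -89.1, -96.6, -94.3 and -9.61 in adults, a difference of 114 ± 24.4 points (SE, adjusted p = 0.0202). The glucose transporter Slc2a1 rose by 90.7 ± 19.6 points (SE, adjusted p = 0.0212) and Bnip3, a mitophagy receptor induced by low oxygen, by 87.4 ± 20.04 points (SE, adjusted p = 0.0268). None of 10 oxidative phosphorylation genes and none of 11 cholesterol and lipid synthesis genes was called by limma. At an unadjusted p under 0.05 there were 4 in each list. Pdk4, the kinase that turns off glucose oxidation, fell by 60.7 ± 15.8 points (SE, adjusted p = 0.0445). Of 10 genes of the IGF axis beyond Igf2 itself 0 were called by limma and 3 had an unadjusted p under 0.05. Meox1, a homeobox gene of somites, was the single call among 21 Hox and limb identity genes, with a rise of 136 ± 27.0 points (SE, adjusted p = 0.0154). That share of 4.76% stood beside 6.55% called over all genes. Among 20 matrix proteases and their inhibitors 0 rose and 2 (10.0%) fell, where 4.48% of all genes fell. These were Mmp13 and the neutrophil collagenase gene Mmp8, which fell by 102 ± 21.9 points (SE, adjusted p = 0.0208).

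**Figure D5:**
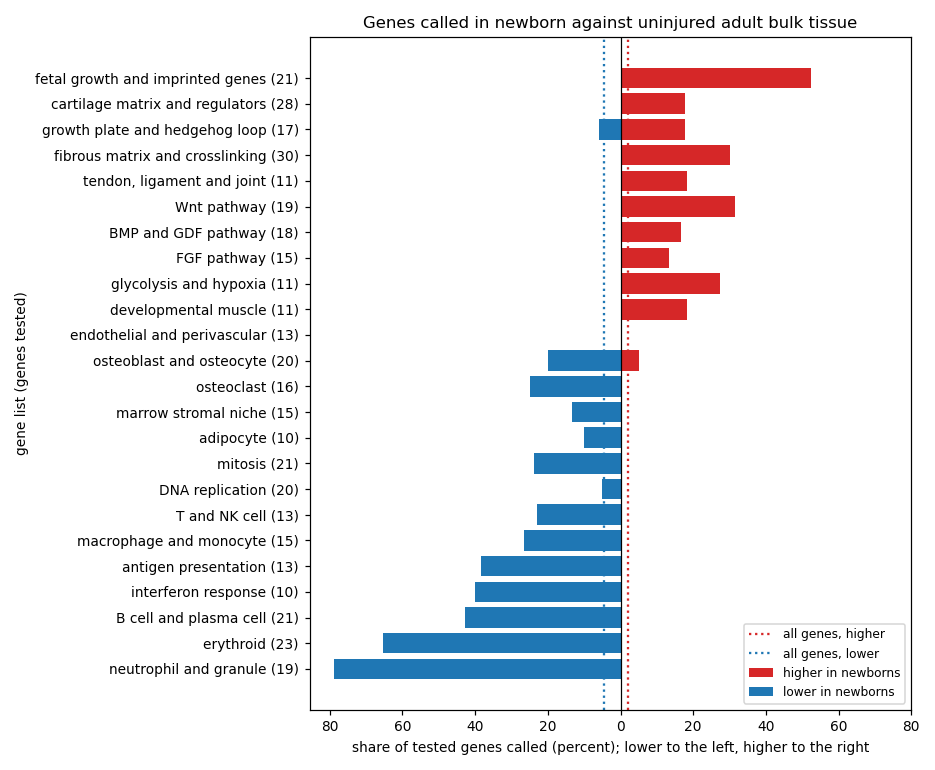
Share of tested genes of each list (rows, with the number tested) that were called higher (red, to the right) or lower (blue, to the left) in newborns, in percent. Dotted lines mark the shares over all genes tested, 2.07% higher and 4.48% lower. The lists were chosen with earlier results of these data known. The fetal growth list reaches furthest to the right, and the neutrophil and erythroid lists furthest to the left.

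The 12 largest rises and 12 largest falls among called genes with separate groups included genes outside these lists. Emilin3, an extracellular matrix protein, scored 93.4, 95.3 and 62.3 in newborns and -90.9, -83.5, -93.3, -76.5 and -90.1 in adults, a difference of 171 ± 18.2 points (SE, adjusted p = 0.00103). Ift88, a transport protein of the primary cilium, scored 89.7, 94.6 and 82.6 in newborns and -97.5, -57.5, -99.4, -97.2 and -44.4 in adults, a difference of 168 ± 18.3 points (SE, adjusted p = 0.00109). Ift140, which works in the opposite direction of ciliary transport and was named after its values were seen, scored -85.6, -99.9 and -95.2 in newborns and 70.9, 22.8, 58.3, 53.4 and 39.9 in adults, a difference of -143 ± 13.7 points (SE, adjusted p = 0.000682). The 2 cilium genes thus differed in opposite directions in the same arrays. Of 11 genes with symbols starting with Ift, 2 rose (Ift88 and Ift20) and 1 fell, where 2.07% of all genes rose and 4.48% fell. P3h1, which hydroxylates collagen, scored 94.2, 42.9 and 96.1 in newborns and 21.97, -100, -94.3, -94.6 and -99.3 in adults, with adult array 1 far above the other adults, a difference of 151 ± 30.5 points (SE, adjusted p = 0.0161). Tox, a nuclear factor gene, rose by 149.98 ± 35.6 points (SE, adjusted p = 0.0308) and was called on 3 of 3 probe sets.

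F2rl2, a thrombin receptor of platelets and other cells, had the largest fall. It scored -94.5, -68.9 and -92.3 in newborns and 84.4, 91.2, 91.5, 91.02 and 77.9 in adults, a difference of -172 ± 16.5 points (SE, adjusted p = 0.000682). Dyrk3, a kinase expressed in red cell precursors, scored -76.2, -59.2 and -66.1 in newborns and 94.6, 86.9, 90.5, 87.5 and 92.4 in adults, a difference of -158 ± 14.9 points (SE, adjusted p = 0.000682). Dtx4, a ubiquitin ligase gene of the Notch pathway, fell by 165 ± 31.5 points (SE, adjusted p = 0.0125), though 1 of its 2 probe sets differed upwards. Abcd2, a peroxisomal transporter, fell by 158 ± 16.6 points (SE, adjusted p = 0.000984) and Gtpbp2, a ribosome rescue factor, fell by 162 ± 18.8 points (SE, adjusted p = 0.00131). Over all called genes, 603 of 678 further probe sets (88.9%) had the same sign as the one used, 209 were also called with that sign and 4 were called with the opposite sign.

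The calls were set beside those of the sorted stem cells for the 8474 genes tested in both tables. Of 257 genes higher in newborn bulk tissue, 158 (61.5%) were also higher in newborn sorted cells and 30 (11.7%) lower, where 26.1% and 29.4% of all shared genes were. Of 493 genes lower in newborn bulk tissue, 364 (73.8%) were also lower in the sorted cells and 21 (4.26%) higher. The shared genes made up 7.14% of the higher and 14.6% of the lower calls of the sorted cells. Blood cell genes were lower in the newborn sorted cells too: 18 of 18 neutrophil, 17 of 18 erythroid and 9 of 10 B cell genes. So were 5 of 5 macrophage and monocyte genes and 4 of 4 T and NK cell genes. The part of blood cell RNA in the shared falls was not tested. The share called among all bulk probe sets tested one by one was 6.59%.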

How the data were processed

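Bulk distal femur was measured on Affymetrix arrays in 3 newborn, 5 uninjured adult and 3 microfractured adult samples, grouped by title. Per the labels' protocols, RNA from powdered frozen bone went through repeated amplification before labelling. For bulk tissue the authors deposited an activity score per probe set. How that score was computed is not given in the sources used here. For sorted stem cells the authors deposited a linear intensity per gene, for which the submitters' processing notes name MAS5. No depth exists for arrays.

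Of 45101 probe sets, 38557 with 1 symbol were used. A gene was its probe set with the highest mean over the bulk arrays, which gave 20889 genes, and 2002 symbols were updated through RefSeq synonyms. Genes with a score above the median of the table (-16.4) in at least 3 arrays were kept, which lets through genes high in 1 group only. Scores were fitted as deposited, over all 3 bulk groups, with limma 3.58.1 in R 4.3.3 (lmFit, then eBayes with a trend of variance on mean, 2-sided), with Benjamini-Hochberg adjustment over all genes tested. Sorted cells were fitted likewise on log2(intensity + 16) for genes above the table's median of 250.4 in at least 3 arrays. The fit was tested on simulated data. Titles share replicate numbers, but deviations of same-numbered newborn and adult arrays correlated at -0.057 to 0.022, so the numbers were not taken to pair samples.

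Named genes were the 12 largest rises and 12 largest falls among calls with separate groups, the members with the smallest p in each list (up to 5), and a list of well-known genes, with some left out for length and a few not reported here. The members, gene lists and rules were chosen with earlier results of these data known. Alternatives changed the filter, the scaling, the variance model, the probe set rule, the bounds and the arrays used. RefSeq coordinates of GRCm38.p6 were used only for promoters and gene order, since the files name no build.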

Additional observations from a re-analysis of the deposited data

Results flagged for a closer look

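Among 142 genes chosen for the text, the 5 adult arrays held 1 array apart from the others in 16 cases, by Dixon's ratio of the gap to the range. The ratio is relative, so a gap of few points can count, as for Rsad2, whose adult scores all lay near the upper bound. A rate of about 1 in 20 groups holds for independent normal values. These scores are bounded and the genes were chosen, so the 16 cases cannot be compared with that rate. Adult array 1 was the array apart in 9 of the 16. It was the lowest for Adipoq (0.757), Ccna2 (0.935), Col10a1 (0.926) and Mcm3 (0.896), and the highest for Chadl (0.724), Mfap2 (0.734), P3h1 (0.953), Pth1r (0.759) and Rsad2 (0.75). Pth1r, the receptor of parathyroid hormone and its relative in the growth plate, scored 71.4, 72.4 and 82.1 in newborns and 76.4, -39.5, -28.8, -47.5 and -62.2 in adults, so that adult array 1 lay within the newborn range. Its difference of 95.6 ± 27.2 points (SE, adjusted p = 0.0637) did not pass. Adult array 5 was apart for Col16a1 (0.886), Col6a1 (0.774), Epb42 (0.77), Pmp22 (0.804) and Thbs2 (0.807), array 4 for Flt1 (0.889) and array 2 for Runx2 (0.855).

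For 10 genes every newborn array lay on one side of all adults in bulk tissue and on the other side in sorted stem cells, with a call in each table. The difference between tissue and cells was not tested, since the units differ. Lower in newborn bulk tissue and higher in newborn sorted cells were Kif11 (-51.9 points), Ccna2 (-42.8 points) and Top2a (-69.0 points). Higher in newborn bulk tissue and lower in newborn sorted cells were Chad (95.2 points), Dkk3 (84.6 points), Fzd1 (89.9 points), Kera (91.3 points), Thbs2 (79.0 points), Tnmd (95.7 points) and Usp29 (131.9 points).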

How the results depend on the processing

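The 1087 bulk calls became 719 (155 higher) with the filter at the 75th percentile, and averaging probe sets raised the higher calls from 344 to 555. Higher calls made up 31.6% of the calls, against 21.6% with that filter. Leaving out 1 array gave 609 to 1064 calls, 144 to 282 higher and 416 to 805 lower. Without adult array 2, 3 or 4 there were 664, 609 and 653 calls, and without newborn array 3 there were 637. Without newborn array 2 the higher calls were 227, and without newborn array 2 and adult array 1, an alternative chosen after seeing the data, 840 genes were called. With the replicate number as a block there were 0 calls (limma), 0 higher and 0 lower, and 2530 genes had an unadjusted p under 0.05. The replicate numbers were not taken to pair the samples, and whether they do is not settled by the labels. The 5945 sorted-cell calls became 3369 (1097 lower) with the stricter filter and 9549 (6709 lower) with none, and 4300 to 5519 with 1 array left out (2317 to 2467 higher, 1919 to 3057 lower, the lower calls falling to 2025, 1919 and 2030 without adult array 1, 2 or 3). All 114 called genes chosen for the text kept their direction in every alternative that tested them. Apart from the block, 56 stayed called in each, among them Igf2, Fgfr3, Sfrp1, Epb42, Cd33, Vpreb1, Phex and Kif11, and 58 missed the threshold in 1 or more: 16 to 41 with 1 array left out and 4 to 15 under the other planned settings. The calls lost most often were Elane (14 of 18), Bmp5 and Mki67 (13 of 18), Mpo (13 of 17), Bub1, Dmp1 and Rrm2 (12 of 18) and Cd74 and Pdk4 (12 of 17). Of the genes not called, the sign turned for 5. With arrays left out, Flt1 ran from -34.3 to 37.3 points (0.48, 1.06 and 0.33 without adult array 1, 2 or 3), Pecam1 from -18.5 to 14.3 (5.42 without adult array 5, 10.4 without newborn array 2 and adult array 1), Ckm from -43.7 to 4.99 (1.64 without newborn array 2), Sost from -16.2 to 31.7 (-12.2 without newborn array 2) and Runx2 from -2.14 to 12.7. With the replicate block Pecam1 was at 8.7 and Sost at -8.4 points. The cause was not tested. Scores close to a bound leave little room for a difference, which limits genes high at both ages.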

Other observations

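Receptor families outside the lists were counted after their values were seen. Of 21 genes of C-type lectins (symbols starting with Clec), which include pattern receptors of myeloid cells, 8 fell and 0 rose (limma), with a median difference of -47.4 points, where 4.48% of all genes fell. Clec1b, a receptor of platelets, differed by -132.9 ± 20.2 points (SE, adjusted p = 0.00433), and Clec7a, the receptor of fungal beta-glucan, by -109.2 ± 22.0 points (SE, adjusted p = 0.016). Of 12 genes of the Klra family, receptors of natural killer cells, 4 fell. These genes are close copies of each other, so probe sets may share signal. Klra18 scored -72.8, -36.9 and -68.2 in newborns and 75.9, 86.9, 92.2, 88.97 and 85.3 in adults, with every newborn array below 0 and every adult array above 70.

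Collagen genes that were called went the other way. Of 37 tested, 8 rose and 0 fell, with a median difference of 38.4 points, where 2.07% of all genes rose. Beside those of the lists, Col16a1 scored 62.8, 28.1 and 76.3 in newborns and -93.9, -90.3, -97.1, -96.7 and -37.9 in adults, a difference of 139 ± 21.4 points (SE, adjusted p = 0.00451), and Col15a1 rose by 98.8 ± 17.3 points (SE, adjusted p = 0.00862). Of 52 ribosomal protein genes (symbols starting with Rpl or Rps) tested, 0 were called in either direction by limma, 8 had an unadjusted p under 0.05, and the median difference was 12.3 points. Pmp22, a myelin protein that other tissues also express, scored 75.1, 41.03 and 88.6 in newborns and -4.71, 2.76, -0.42, 2.62 and -35.3 in adults and rose by 75.2 ± 17.99 points (SE, adjusted p = 0.0316).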
